A study of Mus musculus with 56 samples.

Results

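Day 25 was a late day of a series that followed gene expression in the blood of mice carrying strontium-90 (90Sr), a bone-seeking radionuclide that decays by beta emission. The samples compared are the 12 of 56 arrays whose titles name day 25, of which 6 came from 90Sr-injected mice and 6 from control mice. All were C57BL/6 mice of about 10 to 12 weeks at receipt. The 90Sr mice had received 200 kBq of strontium chloride by tail vein, and the control mice the saline vehicle. RNA was from whole blood taken by cardiac puncture and preserved at collection, globin transcripts had been reduced, and each array held the RNA of a single mouse on a single-channel Agilent whole mouse genome design. The other days entered only the comparisons of the effect at day 25 with that of other days. Strontium is known to settle in bone, next to the marrow.

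Blood RNA comes from cells made in the marrow, with red cells, platelets, granulocytes, monocytes and lymphocytes contributing different transcripts. B lymphocytes are renewed from marrow precursors and are among the most radiosensitive blood cells, and they display antigen peptides on MHC class II molecules. In bulk blood, fewer cells of a type and less RNA per cell cannot be told apart.

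The 90Sr arrays were dimmer and varied more than the control arrays. The median log2 signal of an array ranged from 4.27 to 4.79 in control mice and from 3.45 to 4.22 in 90Sr mice, with no overlap (mean difference -0.66, two-sided exact permutation test, p = 0.0022, adjusted p = 0.0027 over 5 array properties). Spots well above background numbered 20433 to 21615 on control arrays and 14739 to 19119 on 90Sr arrays. The spike-in probes differed by 0.06 between groups (exact permutation p = 0.749). Rank correlations between arrays were 0.949 to 0.973 within the control group and 0.840 to 0.946 within the 90Sr group. Control mice 1 to 4 shared a slide, 90Sr mice 3 to 6 another, and control mice 5 and 6 shared the third with 90Sr mice 1 and 2, so slide and group could be told apart only on that shared slide. The spots well above background of 90Sr mice 1 and 2 (19113 and 19119) were the most among the 90Sr arrays. Nothing in the labels says how mice were grouped for handling, so the p-values measure the spread among these mice on these slides.

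Of 14584 genes tested, 4958 (34%) were called, that is, they passed an unadjusted p of 0.001 in limma with a change of at least 2-fold on the scale of log2 signal less the array median. Of these, 3866 were lower in 90Sr mice (26.5% of genes tested) and 1092 were higher (7.49%), so that 77.97% of the calls were lower. The largest Benjamini-Hochberg adjusted p among the calls was 0.00248, and 10391 genes (71.2%) had an adjusted p under 0.05. In 5860 genes (40.2%) the ranges of the groups did not meet, 4444 of them lower in 90Sr mice (30.5%) and 1416 higher (9.71%). A change of at least 4-fold was reached by 300 genes called lower and by 15 called higher.

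The balance of lower and higher calls followed the scaling of the arrays. The share of calls that were lower was 69.16% with a reference array, 46.83% with quantile normalization, 20.77% with the 75th percentile, 19.98% with the median of spots well above background on all 12 arrays, and 99.88% with the spike-in probes. The median change of all 18802 detected genes was -0.09 on the median scale, and the 75th percentile moved every gene by 0.48. Gene groups are therefore described by the median of their changes less the median of all genes, a quantity that this shift leaves as it is. The genes called in the same direction under the median, 75th percentile, quantile and reference array scalings numbered 999 lower (6.85% of genes tested) and 768 higher (5.27%). Of these 768, 9 were also called higher with the spike-in scaling, and 988 of the 999 were called lower.

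**Figure D1:**
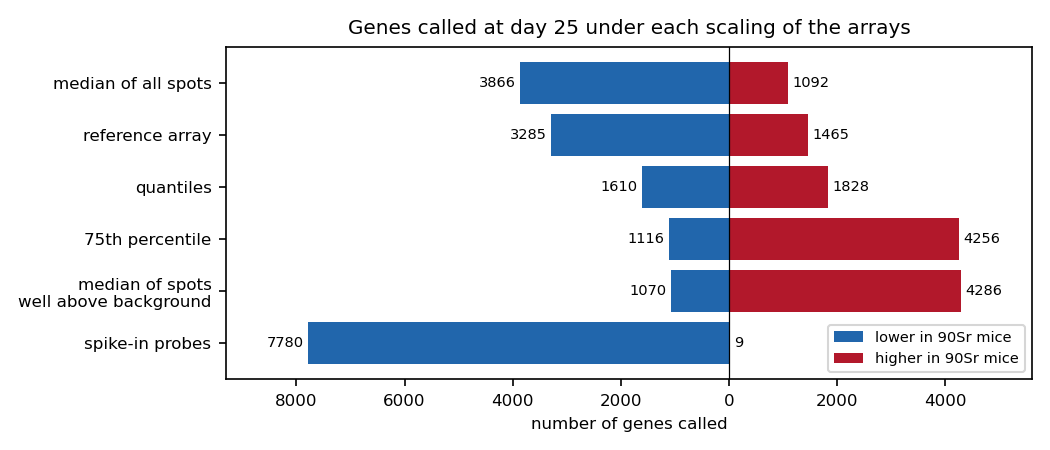
Number of genes called at day 25 (x axis) under 6 scalings of the same 12 arrays (y axis), with genes lower in 90Sr mice to the left and genes higher to the right. Lower calls range from 1070 to 7780 and higher calls from 9 to 4286.

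The size of the differences varied with slide. In the 999 genes lower under 4 scalings, the median change was -1.74 over all mice, -1.02 within the shared slide and -2.11 between mice on the other slides. In the 768 genes higher under 4 scalings, the medians were 1.25, 0.86 and 1.43. Every one of the 999 and of the 768 kept its sign within the shared slide, and 536 and 265 of them differed there by at least 2-fold. The mice of that slide were among those used to call the genes, so the sign there was nearly fixed by the calls. Of all genes called, 3865 of the 3866 lower and 1092 of the 1092 higher kept it too. With slide as a fixed block 81 genes were called, with slide as a random block 3619, and within the shared slide alone (2 against 2 mice) 25.

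Calls also depended on how bright a gene was. The median control level was 3.27 for genes called lower, -0.04 for genes called higher and 1.78 for all genes tested, in log2 units above the array median. With genes ranked by control level and cut into 5 equal bins, 484 of the 2917 genes in the dimmest bin were called higher and 0 lower. From the dimmest bin to the brightest, 0%, 8.16%, 36.4%, 51.8% and 36.2% of genes were called lower. The shares called higher were 16.6%, 7.54%, 4.90%, 4.32% and 4.08%, and the median changes 0.82, 0.27, -0.85, -1.07 and -0.65. The values of all genes set beside gene lists below were not matched for level. Of the 1092 genes called higher, 494 were well above background on every 90Sr array and 317 on none. With normexp background correction fitted without the spots whose background exceeded their signal, an alternative chosen after the data were seen, 10 genes were called higher and 3183 lower.

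**Figure D2:**
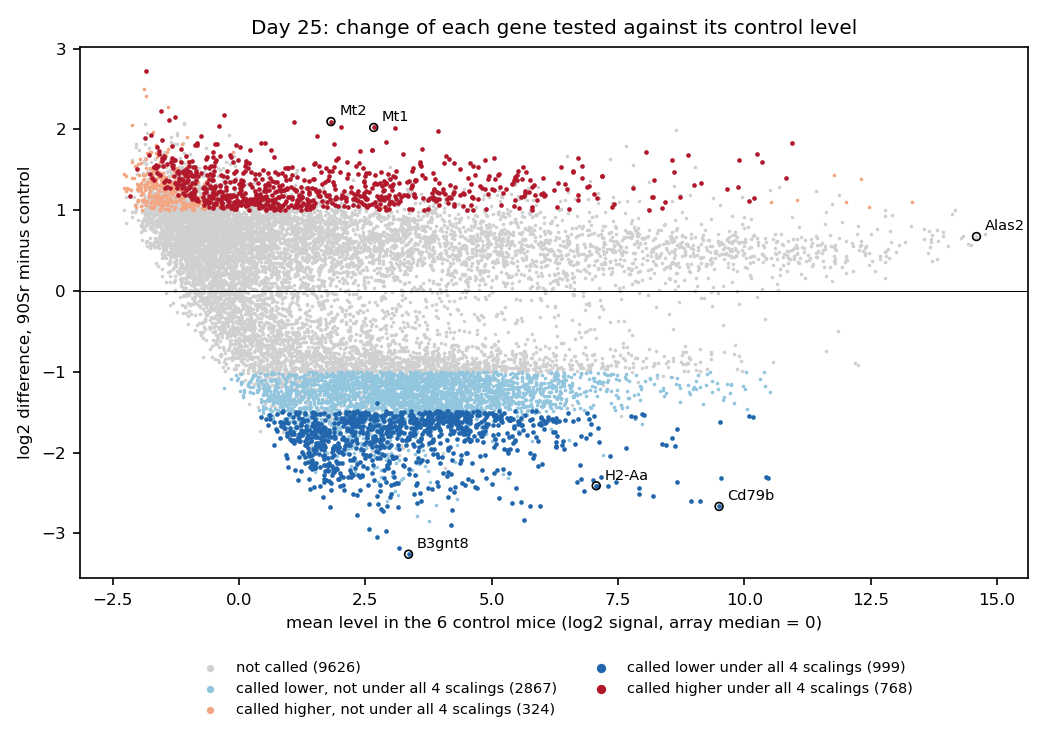
Difference between the group means (y axis, log2, 90Sr minus control) against the mean level in the 6 control mice (x axis, log2 signal with the array median at 0) for the 14584 genes tested, each point a gene. Genes called lower under 4 scalings (999) lie mostly at middle to high control levels, and many genes called higher lie at the dim end, with Mt1 and Mt2 above them.

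B cell genes had the lowest median change among the 12 lists of cell markers. Of 20 listed genes, 19 were detected and 18 tested, and 16 of these were called lower, all 16 under 4 scalings, against 26.5% and 6.85% of all genes. The median change of the 19 was -2.36, or -2.27 less the median of all genes. The median level of the list on an array ranged from 5.18 to 5.64 in control mice and from 3.02 to 4.48 in 90Sr mice. The lists for signaling below the B cell receptor and for immunoglobulin secretion moved the same way, with 15 of 15 and 6 of 10 genes tested called lower (9 and 4 under 4 scalings) and medians less that of all genes of -1.35 and -0.87.

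Cd79b, a signaling chain of the B cell receptor, was measured at 9.69, 9.26, 9.66, 9.77, 9.16 and 9.46 in control mice 1 to 6 and at 7.26, 8.23, 7.41, 5.95, 5.64 and 6.5 in 90Sr mice 1 to 6. Every 90Sr mouse lay below every control mouse, and mice 4, 5 and 6 were the lowest. Cd79b fell 6.35-fold (log2 difference -2.67, SE 0.36, limma adjusted p = 0.000136). Its partner Cd79a went from a median of 7.43 to 4.99 with ranges that did not meet, a 5.14-fold fall. Ms4a1, the surface protein CD20, went from a median of 7.88 to 5.38, a 5.73-fold fall. These 3 genes were also lower in the mice of the shared slide, with log2 differences of -1.46 for Cd79a, -1.56 for Cd79b and -1.31 for Ms4a1. The fits with slide as a fixed block gave adjusted p of 0.176 to 0.182 for the 3 genes.

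Not every B cell marker was called. Pax5, the transcription factor that fixes B cell identity, was dim (median 0.41 in control mice) and differed by 0.64 (adjusted p = 0.0128, limma). Of the 6 scalings, it was called higher with the 75th percentile and with the median of spots well above background, and it differed by -0.08 with the spike-in probes. Control mouse 6 stood above the other 5 at 1.0. Ralgps2 differed by -0.89, short of the 2-fold threshold, and Cd22, an inhibitory receptor, differed by -0.47 and was left out of the test by the filter on variation.

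Among the 12 genes named by the largest change downward, some are known from B cells and others are not. Tnfrsf13c (the receptor for the survival factor BAFF) and Fcrla (an intracellular Fc receptor-like protein) fell 6.35-fold and 6.34-fold. The other, dimmer probe of Tnfrsf13c differed by 0.09. Fcrl1, a surface Fc receptor-like protein, went from a median of 2.93 to -0.44, a 7.84-fold fall, and was well above background on 2 of 6 90Sr arrays. Il4i1, a secreted amino acid oxidase that interleukin 4 induces in B cells, ranged from 5.22 to 5.89 in control mice and from 1.71 to 4.16 in 90Sr mice, a 7.12-fold fall. The list was headed by B3gnt8, a glycosyltransferase that extends sugar chains on glycoproteins, with a median of 3.40 in control mice, -0.23 in 90Sr mice and a 9.58-fold fall (log2 difference -3.26, SE 0.37, limma adjusted p = 0.000129).

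The remaining genes of the 12 were H2-Eb2, an MHC class II chain (-2.95), Pla2g2d, a secreted phospholipase A2 (-2.90), Xkrx, of the XK family (-2.71), Ell3, an elongation factor of RNA polymerase II (-2.68), Cobll1 (-2.66) and Dennd5b (-3.05). All 12 had groups that did not overlap, as the rule for naming them required. Dennd5b is uncertain, because a brighter probe of the same gene, at a control level of 7.85, differed by -0.26. The other, dimmer probe of Pla2g2d differed by 0.81. Within the shared slide the 12 differences ranged from -1.92 for B3gnt8 to -0.97 for Pla2g2d.

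**Figure D3:**
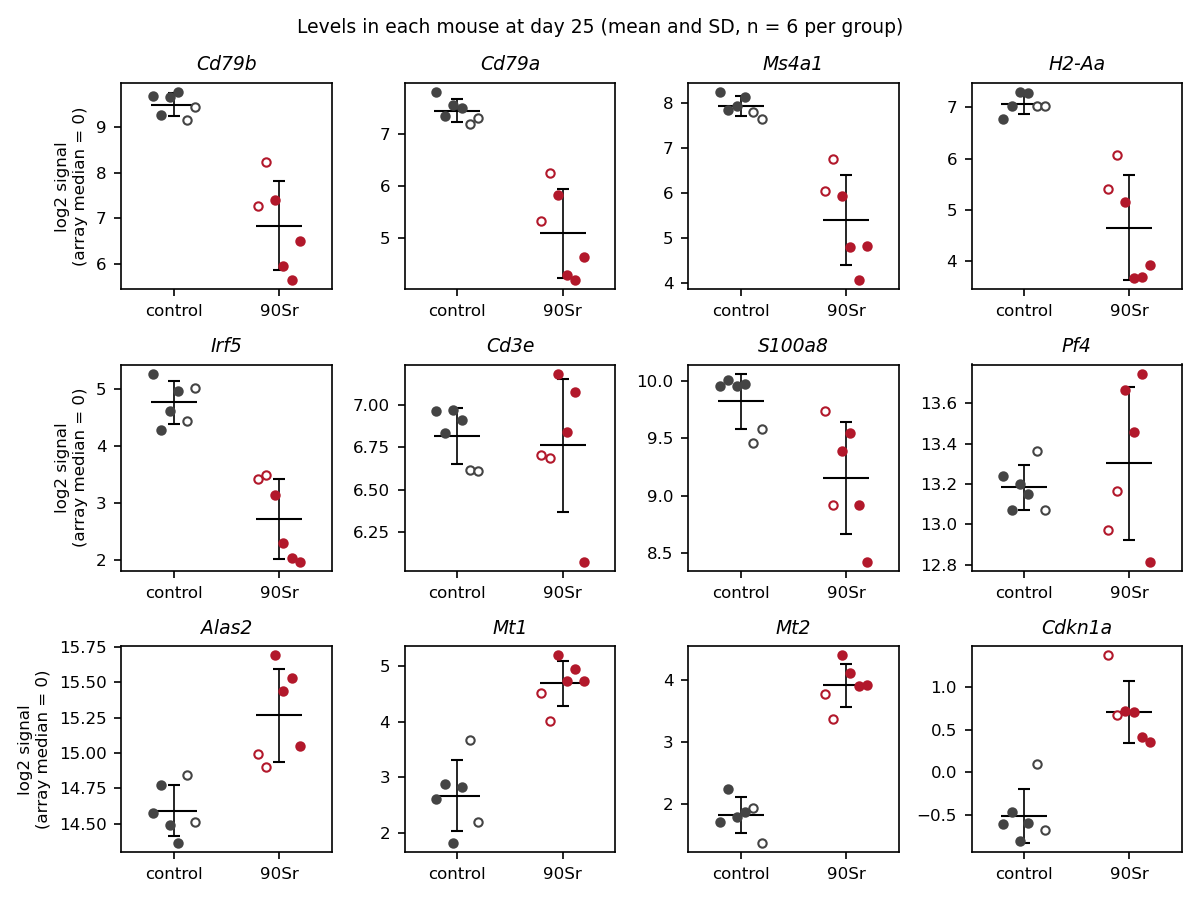
Level of 12 genes in each of the 12 mice (y axes, log2 signal with the array median at 0, each panel with its own range); points are mice, open points the 4 mice on the shared slide, and the bars the mean and SD of 6 mice. Cd79b, Cd79a, Ms4a1, H2-Aa and Irf5 are lower in every 90Sr mouse, Mt1 and Mt2 are higher in every 90Sr mouse, and the groups overlap for Cd3e, S100a8 and Pf4.

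Genes of MHC class II presentation were lower as a group. MHC class II molecules are pairs of an alpha and a beta chain that display peptides to CD4 T cells, and B cells, monocytes and dendritic cells carry them. Of 15 genes listed, all were detected and tested, and 15 were called lower, 12 of them under 4 scalings, against 26.5% and 6.85% of all genes. The median change was -2.32, or -2.23 less the median of all genes, and -1.22 within the shared slide. H2-Aa, an alpha chain (chr17:34421285-34421344 on mm9, the position of its probe), was measured at 6.78, 7.02, 7.29, 7.28, 7.02 and 7.03 in control mice and at 5.42, 6.06, 5.16, 3.68, 3.69 and 3.94 in 90Sr mice. It fell 5.32-fold (log2 difference -2.41, SE 0.37, limma adjusted p = 0.000175). H2-DMb2, a chain of the molecule that loads peptides, fell 5.85-fold, and Cd40, a costimulatory receptor for T cell help, fell 5.18-fold. H2-Eb1, a beta chain and among the brighter genes called, went from a median of 10.53 to 8.07.

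Transcription of MHC class II genes is known to depend on a promoter module that includes the Y box, so the sequences upstream of the start of these genes were searched for CTGATTGG on both strands. Of the 15 genes, 10 matched the RefSeq promoter table (GRCm38.p6) and 3 held the motif in the 250 bases before the start, while 3.83% of the 32851 windows of this length in the table held it. The 3 windows are printed because these members fell together, with the motif in capitals. They lie at chr17:34287824-34288073 (minus strand) for H2-Aa, chr17:34305617-34305866 (plus strand) for H2-Eb1 and chr17:34092129-34092378 (plus strand) for H2-Oa, the alpha chain of a molecule that restrains peptide loading, which changed by -2.16.
H2-Aa: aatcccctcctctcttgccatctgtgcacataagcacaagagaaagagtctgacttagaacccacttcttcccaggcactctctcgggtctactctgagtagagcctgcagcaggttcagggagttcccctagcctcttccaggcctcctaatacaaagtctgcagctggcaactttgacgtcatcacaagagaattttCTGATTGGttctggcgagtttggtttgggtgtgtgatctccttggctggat
H2-Eb1: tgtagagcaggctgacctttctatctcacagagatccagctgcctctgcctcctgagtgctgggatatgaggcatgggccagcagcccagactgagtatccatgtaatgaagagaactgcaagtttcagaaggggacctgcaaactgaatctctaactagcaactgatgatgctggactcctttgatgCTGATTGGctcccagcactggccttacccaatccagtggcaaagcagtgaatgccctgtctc
H2-Oa: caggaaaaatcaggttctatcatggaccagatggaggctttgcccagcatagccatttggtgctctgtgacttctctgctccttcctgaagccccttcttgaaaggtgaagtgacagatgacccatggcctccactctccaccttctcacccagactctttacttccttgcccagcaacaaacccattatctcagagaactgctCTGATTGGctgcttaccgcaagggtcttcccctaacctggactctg
A match to these letters is a description of the sequence only. The octamer ATGCAAAT, which Oct factors recognize in immunoglobulin promoters, was in the windows of 0 of the 14 B cell genes that matched the table and in 1.6% of all windows.

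Monocyte, dendritic cell and basophil genes were lower in part. Of 17 monocyte genes tested 8 were called lower (47.1%), 1 under 4 scalings, against 26.5% and 6.85% of all genes. The share under 4 scalings was thus no larger than that of all genes. The list median less that of all genes was -1.16. Ccr2, the receptor that draws monocytes out of the marrow, ranged from 3.92 to 4.58 in control mice and from -0.51 to 3.2 in 90Sr mice and fell 5.98-fold (adjusted p = 0.000554, limma), but was not called under all 4 scalings. Cx3cr1, a receptor of patrolling monocytes, fell 4.79-fold, and its 2 other probes differed by -2.69 and -2.29. Irf5, a transcription factor of myeloid and B cells, fell 4.1-fold and was the member called under 4 scalings. Csf1r, the growth factor receptor that defines monocytes, is uncertain: the tested probe differed by -1.30, while a brighter probe with a control level of 8.65 differed by 0.22.

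Of 11 dendritic cell genes tested 5 were called lower and of 7 basophil, eosinophil and mast cell genes 4 were, against 26.5% of all genes. Under 4 scalings 2 and 1 were lower, against 6.85% of all genes. Cd209a, a lectin of dendritic cells, was the most variable, at -1.73 to 3.03 in 90Sr mice against 3.26 to 3.78 in control mice. Irf8 and Tcf4, transcription factors of dendritic and B cells, fell 3.88-fold and 3.69-fold and were called under 4 scalings. The other, dimmer probe of Tcf4 differed by 0.05. Fcer1a, the IgE receptor chain of basophils, was well above background on 6 of 6 control arrays and 0 of 6 90Sr arrays and was at least 2.45-fold lower (adjusted p = 0.000129, limma).

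T cell, NK and neutrophil markers were called lower in shares at or below that of all genes (26.5%). Of 18 T cell genes tested 4 were called lower (22.2%), 1 under 4 scalings. The median change of the list less that of all genes was -0.72, and 20 of the 22 detected genes differed below 0. In limma 16 had an unadjusted p under 0.05, 15 lower and 1 higher. Of all 14584 genes tested, 71.2% passed the stricter adjusted p under 0.05, 5793 lower and 4598 higher. Single members varied in size and sign. Cd3e, a chain of the T cell receptor complex, ranged from 6.61 to 6.97 in control mice and from 6.08 to 7.18 in 90Sr mice (difference -0.06, limma adjusted p = 0.807). Cd4 differed by 0.37 (adjusted p = 0.188), whereas Cd8a fell by 1.12 on the log2 scale (adjusted p = 0.00109, limma) with groups that overlapped. Cd2, an adhesion molecule of T and NK cells, ranged from 7.66 to 7.99 in control mice and from 5.35 to 7.09 in 90Sr mice and fell 2.96-fold, and Tcf7 fell 2.17-fold.

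Of 15 NK and cytotoxic genes tested 0 were called by limma in either direction, and 11 had an unadjusted p under 0.05, all lower. Since 71.2% of all genes passed the stricter adjusted p under 0.05, the number passing does not by itself set apart this list or those below. The list median less that of all genes was -0.74 over all mice and 0.12 within the shared slide, so its sign changed there. Ncr1, an activating receptor of NK cells, differed by -0.92 (adjusted p = 0.00207), below the 2-fold threshold. Of 15 neutrophil genes tested 2 were called lower, Ly6g (2.31-fold) and Mmp9 (2.17-fold), and 0 under 4 scalings. In limma 11 of the 15 had an unadjusted p under 0.05, 10 lower and 1 higher. S100a8 and S100a9, the abundant calprotectin chains of neutrophils, differed by -0.67 and -0.50 (adjusted p = 0.0184 and 0.0614, limma), with groups that overlapped. Of 7 genes of azurophil granules and immature myeloid cells tested, 0 were called by limma, and 5 had an unadjusted p under 0.05, 3 lower and 2 higher.

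Platelet genes differed little, and the medians of red cell genes were above that of all genes. The median change of 18 platelet genes less that of all genes was 0.00, and the 18 changes ran from -0.37 to 0.29; 12 of the 18 varied too little to be tested. Of the 6 tested, limma called 0, and 0 had an unadjusted p under 0.05. Pf4, platelet factor 4, had a median of 13.18 in control mice and 13.31 in 90Sr mice, with groups that overlapped. The 26 erythroid membrane and maturation genes and the 17 genes of heme synthesis and globin had medians of 0.57 and 0.62 less that of all genes, with 0 called by limma of 19 and 13 tested. An unadjusted p under 0.05 was reached by 16 and 7 of them, all higher. Of all 14584 genes tested, 4598 were higher at the stricter adjusted p under 0.05. Before the median of all genes was taken off, the medians were 0.48 and 0.53 over all mice but 0.03 and 0.14 within the shared slide. With the 75th percentile scaling, 10 of 25 and 8 of 15 were called higher, and with the spike-in scaling 0. Alas2, the enzyme that starts heme synthesis in red cells, ranged from 14.36 to 14.85 in control mice and from 14.90 to 15.69 in 90Sr mice, without overlap (difference 0.67, limma adjusted p = 0.00623), and was 0.27 within the shared slide and -0.05 with the spike-in scaling. Slc4a1, the band 3 anion exchanger, differed by 0.56 (adjusted p = 0.0358, limma). Globin transcripts had been reduced before labeling, so globin values are those of what remained. Of 6 stem and progenitor cell genes tested 3 were called lower, 1 under 4 scalings, against 26.5% and 6.85% of all genes. They were Ly6a, Myb and Meis1, the first lower by 3.08-fold. Meis1 was well above background on 0 of 6 90Sr arrays and was at least 1.43-fold lower.

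**Figure D4:**
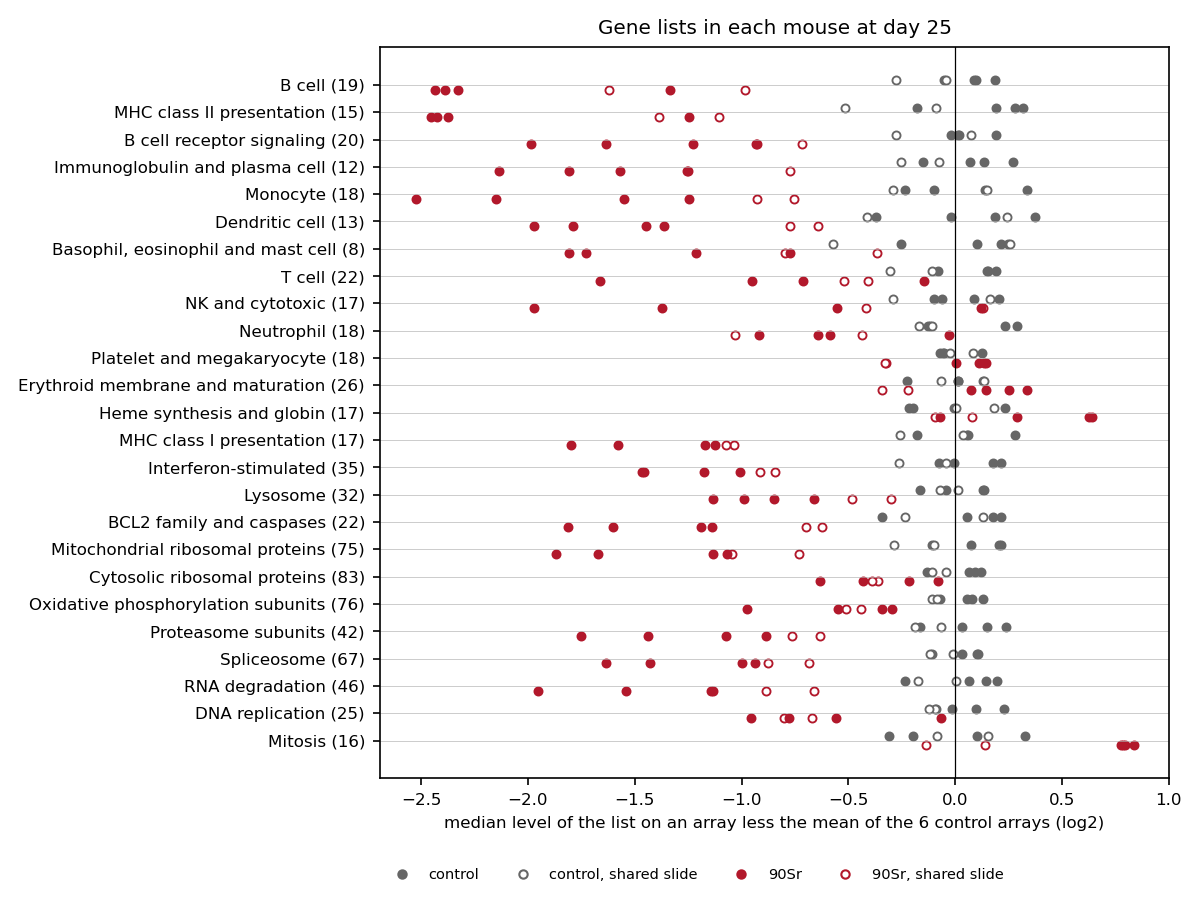
Median level of each of 25 gene lists on each array less the mean of the 6 control arrays (x axis, log2), with the number of detected genes of the list in parentheses; points are mice, open points those on the shared slide. The B cell and MHC class II values of all 6 90Sr mice lie below all control values, while platelet values of the groups overlap.

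Genes of innate sensing and of the response to cytokines were called lower in larger shares than all genes (26.5%). In the second brightest of the 5 bins by control level that share was 51.8%. Of 28 interferon-stimulated genes tested 15 were called lower (53.6%), 3 under 4 scalings against 6.85% of all genes. The list median less that of all genes was -0.88. Oas1a, a sensor of viral RNA, fell 3.59-fold, and Stat2, which carries the type I interferon signal to the nucleus, fell 3.57-fold. Of 16 genes of Toll-like receptors and endosomal sensing 9 were called lower, 3 under 4 scalings, and 1 higher. Tlr1, a receptor for bacterial lipopeptides, fell 5.28-fold. Unc93b1, the chaperone that carries Toll-like receptors to endosomes, ranged from 6.39 to 7.01 in control mice and from 4.13 to 5.49 in 90Sr mice and fell 3.71-fold (log2 difference -1.89, SE 0.26, limma adjusted p = 0.000136). The single higher member, Tlr5, the flagellin receptor, was well above background on 0 control arrays and 1 90Sr array.

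Receptor genes were also called lower in shares above the 26.5% of all genes. By control level that share was 51.8% in the second brightest and 36.2% in the brightest of the 5 bins. Of 24 cytokine receptor genes tested 14 were called lower (4 under 4 scalings), among them Il17ra, Ifnar1 and Ifngr2, which fell 3.31-fold, 3.04-fold and 3.01-fold. Of 19 chemokine receptor and homing genes 12 were called lower (4 under 4 scalings), among them Ccr6, a receptor of B and T cells, which fell 4.77-fold. Of 12 MHC class I presentation genes 9 were called lower (3 under 4 scalings), among them the peptide transporter gene Tap1 (3.04-fold) and the immunoproteasome subunit Psmb8 (2.96-fold). Of 15 Fc and inhibitory receptor genes 8 were called lower, 1 under 4 scalings against 6.85% of all genes, and Fcgr2b, the inhibitory IgG receptor of B cells, fell 3.89-fold. Of 13 complement genes tested 2 were called lower (15.4%, below the 26.5% of all genes) and 1 higher (7.69%, against 7.49%). Cd55, which shields cells from complement, was down 5.45-fold. Serping1, an inhibitor of the first complement component, was up 2.48-fold in groups that overlapped.

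Lysosomal genes, caspases and the BCL2 family were also called lower in shares above those of all genes (26.5%, and 6.85% under 4 scalings). The share of all genes was 51.8% in the second brightest and 36.2% in the brightest of the 5 bins by control level. Of 20 lysosomal genes tested 13 were called lower, 7 under 4 scalings, with a median less that of all genes of -0.85. Ctsh, a lysosomal protease, fell 3.86-fold, and Ctss, a cathepsin that trims the chain blocking the MHC class II groove, 3.72-fold. Of 13 BCL2 family and caspase genes 10 were called lower, 5 under 4 scalings. Casp1, which activates interleukin 1 beta, ranged from 4.37 to 5.09 in control mice and from 2.03 to 4.01 in 90Sr mice. Bmf, a promoter of apoptosis, fell 3.41-fold.

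Genes of mitochondrial translation and of RNA handling were called lower in larger shares than all genes (26.5%), but that share varied with control level. In the second brightest of the 5 bins (control level 2.55 to 4.33), 51.8% of genes were called lower, with a median change of -1.07. Under 4 scalings 369 of the 2917 genes of that bin were lower. Whether these lists differed from genes of their own level was not tested. Of 58 mitochondrial ribosomal protein genes tested 47 were called lower and 0 higher, 15 under 4 scalings, with a median less that of all genes of -1.07. Mrpl17 went from a median of 2.94 to 1.19, a 3.34-fold fall (log2 difference -1.74, SE 0.25, limma adjusted p = 0.000139). Mrpl3 fell 3.29-fold, and Mrps2 fell 3.78-fold and was well above background on 1 of 6 90Sr arrays. The other, dimmer probe of Mrps2 differed by 1.05. Of 31 cytosolic ribosomal protein genes tested 10 were called lower, 0 under 4 scalings, with a median less that of all genes of -0.22. The difference between the 2 families was not tested, and their levels differed, with array medians in control mice of 3.91 to 4.41 and 10.37 to 10.63.

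Of 54 spliceosome genes tested 35 were called lower, 7 under 4 scalings, and of 37 genes of RNA degradation 25 were called lower and 1 higher. Exosc4, a subunit of the RNA exosome, fell 3.52-fold, and Xrn2, a nuclear exonuclease, 3.14-fold. Dcps, a scavenger decapping enzyme, was the higher one, at 4.15 to 5.11 in control mice and 5.12 to 6.42 in 90Sr mice (2.22-fold), although its other probe differed by 0.21. Sf3b1, a core splicing factor, was down 3.70-fold at a dim level (control median 1.16) with groups that overlapped. Of 48 translation factor genes 25 were called lower, with Eif2ak4, the kinase that senses amino acid shortage, down 4.56-fold. The other, dimmer probe of Eif2ak4 differed by 0.33. Of 27 proteasome genes 18 were called lower, 2 under 4 scalings, and of 43 oxidative phosphorylation genes 17, with 0 under 4 scalings. Against the 26.5% of all genes called lower these were 66.7% and 39.5%, while their counts under 4 scalings stand beside 6.85% of all genes. Psmb10, an immunoproteasome subunit, fell 2.86-fold, and Ndufs8, of respiratory complex I, fell 2.79-fold.

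Of 78 chromatin regulators 39 were called lower and 1 higher, and of 217 Zfp zinc finger genes 83 were lower and 7 higher, against 26.5% and 7.49% of all genes. Under 4 scalings 8 chromatin regulators and 21 Zfp genes were lower and 1 and 3 higher. The median control levels of these lists were 3.13 and 1.86. In the bins by control level that hold these values, 51.8% and 36.4% of genes were called lower (369 of 2917 and 348 of 2916 under 4 scalings). Whether the lists differed from genes of their own level was not tested. The balance turned with the 75th percentile scaling, to 10 lower and 10 higher chromatin regulators and to 24 lower and 44 higher Zfp genes. Tet2, which oxidizes methylated cytosine, fell 4.30-fold (-0.91 on the log2 scale within the shared slide), while its other, dimmer probe differed by 0.16. Of 18 genes of cholesterol and fatty acid synthesis 11 were called lower, 3 under 4 scalings, with Abca1, a cholesterol exporter, down 3.88-fold. Hif1a, the oxygen-sensing transcription factor, ranged from 1.24 to 2.61 in control mice and from -1.23 to 0.99 in 90Sr mice, a 4.66-fold fall. Of 18 autophagy genes 5 and of 11 glycolysis genes 3 were called lower, shares of the same order as in all genes.

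Targets of p53, the tumor suppressor that radiation activates, went both ways. Of 15 genes tested 3 were called higher (20%, against 7.49% of all genes) and 3 lower (20%, below the 26.5% of all genes). Under 4 scalings 3 were higher and 0 lower, against 5.27% and 6.85% of all genes. The median of the list less that of all genes was -0.47. Cdkn1a, the cell cycle inhibitor p21, was measured at -0.62, -0.47, -0.81, -0.60, 0.10 and -0.69 in control mice and at 1.38, 0.68, 0.73, 0.71, 0.42 and 0.35 in 90Sr mice, without overlap. It was well above background on 0 control and 2 90Sr arrays (log2 difference 1.23, SE 0.22, limma adjusted p = 0.000308), and it differed by 1.32 within the shared slide. Against the dimmest such signal of the control arrays it was 1.78-fold higher on the median scale. Most of its 90Sr values were themselves not well above background, so this is not a firm bound. Ddit4, an inhibitor of growth signaling, ranged from 4.61 to 5.15 in control mice and from 5.63 to 6.59 in 90Sr mice and rose 2.39-fold, with 1.40 within the shared slide. Psrc1, a microtubule-binding protein, rose 2.14-fold. With the spike-in scaling these 3 differed by 0.51, 0.54 and 0.38 and were not called.

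Pmaip1 (Noxa) and Ddb2 were called lower, by 3.17-fold and 2.06-fold, as was Pltp, whose control mouse 5 stood apart at 4.25. Ccng1 and Bbc3, further p53 targets, differed by -0.23 and -0.24, and the filter on variation left them out of the test. The housekeeping gene Actb differed by -0.09 and was left out in the same way.

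Of 18 genes of DNA break and mismatch repair 9 were called lower, 3 under 4 scalings, against 26.5% and 6.85% of all genes. In the bin that holds their median control level of 2.10, 36.4% of genes were called lower. Among the 9 were Rnf168, a ubiquitin ligase at break sites (5.04-fold), Parp1 (4.29-fold) and Rnf8 (3.19-fold). Replication and mitosis genes did not move together. Of 18 replication genes 5 were called lower (27.8%, near the 26.5% of all genes), 0 under 4 scalings, among them Mcm3 and Cdt1, each 2.60-fold down, and Mcm5, 2.42-fold down. Of 15 mitosis genes 0 were called lower and 1 higher, Ccnb2, cyclin B2, with a median of 4.51 in control mice and 5.52 in 90Sr mice (2.01-fold). The median of the list less that of all genes was 0.58. Its array medians were 2.63 to 2.69 in 90Sr mice 3 to 6, above the 1.55 to 2.18 of control mice, while 90Sr mice 1 and 2 of the shared slide, at 2.00 and 1.72, lay within that range. Of the list, 7 of 15 were called higher with the 75th percentile scaling and 0 with the spike-in scaling. Racgap1, a GTPase regulator of cell division, differed by 1.14 but did not pass the p threshold (adjusted p = 0.00434, limma), and its other, dimmer probe differed by -0.33.

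The metallothionein genes Mt1 and Mt2 were the clearest increases. Metallothioneins are small cysteine-rich proteins that bind zinc and copper and are induced by metals, glucocorticoids and oxidative stress. Mt2 was measured at 1.71, 2.25, 1.80, 1.86, 1.94 and 1.37 in control mice and at 3.78, 3.38, 4.4, 4.11, 3.91 and 3.93 in 90Sr mice. The lowest 90Sr mouse lay above the highest control mouse. Mt2 rose 4.28-fold (log2 difference 2.10, SE 0.21, limma adjusted p = 7.17e-05), and by 1.92 within the shared slide. Mt1 ranged from 1.82 to 3.68 in control mice and from 4.02 to 5.19 in 90Sr mice and rose 4.07-fold (log2 difference 2.03, SE 0.29, limma adjusted p = 0.000137), although its other, dimmer probe differed by 0.37. Both were still called higher with the spike-in scaling, at 1.38 and 1.30. With the normexp correction the differences were 0.96 for Mt2 and 1.13 for Mt1, and only Mt1 stayed past the 2-fold threshold. Of 15 genes of metal, iron and oxidative stress tested these 2 were called higher and 2 lower. Each is 13.3% of the list, against 7.49% higher and 26.5% lower of all genes.

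The genes lie next to each other on chromosome 8 (probes at chr8:96697371-96697430 for Mt2 and chr8:96704165-96704224 for Mt1 on mm9). Metal response elements, bound by the zinc-sensing factor MTF-1, share the core TGCRCNC, where R is A or G. The pattern searched, TGCNCNC, is looser and admits any base there. Since both genes rose, the 250 bases before each start in the RefSeq table are printed, with matches on either strand in capitals. The windows (GRCm38.p6, plus strand) are chr8:94172368-94172617 for Mt2 and chr8:94178839-94179088 for Mt1.
Mt2: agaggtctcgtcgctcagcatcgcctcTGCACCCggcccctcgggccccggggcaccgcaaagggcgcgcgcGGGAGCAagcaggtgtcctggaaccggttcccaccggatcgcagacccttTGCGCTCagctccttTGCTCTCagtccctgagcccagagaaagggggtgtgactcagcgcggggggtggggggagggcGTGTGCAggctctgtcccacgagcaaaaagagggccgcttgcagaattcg
Mt1: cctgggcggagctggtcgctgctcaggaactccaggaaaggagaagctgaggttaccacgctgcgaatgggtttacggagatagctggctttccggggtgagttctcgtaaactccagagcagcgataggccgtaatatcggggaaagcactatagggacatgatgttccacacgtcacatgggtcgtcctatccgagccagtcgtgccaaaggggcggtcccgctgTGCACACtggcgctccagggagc
There were 5 matches for Mt2 and 1 for Mt1. Of the Mt2 matches, TGCTCTC and GGGAGCA (read on the other strand) have T at the fourth letter and so do not match TGCRCNC. The pattern searched is short, and 44.4% of all 32851 windows held at least 1 match to it and 0.344% held 5 or more.

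The other genes named by the largest increase had control medians of 0.06 (Nacad) to 7.93 (Mbd5), and their differences were smaller within the shared slide (0.71 to 1.34) than between mice on the other slides (1.91 to 2.69). Trcg1 ranged from 3.29 to 5.17 in control mice and from 5.39 to 6.39 in 90Sr mice and rose 3.93-fold. Itih1, a liver-made component of hyaluronan-binding complexes, rose 3.59-fold from a control median of 2.79. Mbd5, a methyl-CpG binding domain protein, was the brightest of the 12 and went from a median of 7.93 to 9.57 (3.3-fold), while another probe of the gene, with a control mean of 1.25, differed by -0.69. Slc10a1, a bile acid transporter of liver cells, rose 4.08-fold on the tested probe, with 0.71 within the shared slide, but a far brighter probe with a control mean of 12.05 differed by 0.13. Col6a6, a collagen chain, Srcap, a chromatin remodeling ATPase, Xlr5a, Nacad, Rhox6 and Olfr406 rose between 3.35-fold and 3.77-fold. With the spike-in scaling none of the 12 besides Mt1 and Mt2 kept its call, and the 9 of them that were measured there on the same probe differed by 1.0 (Mbd5) to 1.25 (Trcg1). With the normexp correction fitted without those spots, Trcg1, Itih1 and Mbd5 kept their call.

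Olfactory and vomeronasal receptor genes, which have no known role in blood, were called higher in 20.3%, against 7.49% of all genes. In the dimmest bin by control level 16.6% of genes were called higher, with a median change of 0.82 beside 0.89 for this list. Of 316 olfactory and vomeronasal receptor genes tested 64 were called higher and 0 lower, with a median less that of all genes of 0.97. Under 4 scalings 45 of the 316 were higher, against 5.27% of all genes and 178 of the 2917 genes of the dimmest bin. The family was dim, with an array median of -0.57 to 0.01 in control mice and 0.25 to 0.95 in 90Sr mice, and the number called higher was 202 of 327 with the 75th percentile and 0 with the spike-in scaling. Vmn2r4, a vomeronasal receptor, was the member of largest change (2.05) and was well above background on 2 control arrays and 5 90Sr arrays. Of 46 keratin and keratin-associated genes 4 were called higher (8.70%), among them Krtap8-1, which rose 2.20-fold. Of 164 solute carrier genes 14 were called higher (8.54%) and 36 lower (21.95%), with a median less that of all genes of 0.04. The shares of both lists were near those of all genes. The part of array brightness in these calls was not tested.

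The effect of 90Sr at day 25 was set against that at day 30 and against the mean effect of days 4, 7 and 9, each as a contrast in a limma fit of all 56 arrays. Against day 30, 1081 genes (7.41%) differed at an adjusted p under 0.05, 809 lower at day 25 (5.55%) and 272 higher (1.87%). This split turned with the scaling, to 182 lower and 456 higher with the 75th percentile and to 157 and 641 with the reference array. With slide as a random block 225 genes differed. At day 30, 90Sr mice 3 to 6 were on a slide scanned on another day than their controls, as were 90Sr mice 2 to 5 at day 7, so in these mice scan day and slide cannot be told apart from the effect. With those mice left out, an alternative chosen after the data were seen, 9 genes differed from day 30 and 21 from days 4, 7 and 9. This leaves 2 90Sr mice at each of days 7 and 30, and fewer for a gene with a missing value. Against days 4, 7 and 9, 36 genes (0.247%) differed, 7 lower (0.048%) and 29 higher (0.199%) at day 25. With slide as a random block 0 did in limma, and 734 had an unadjusted p under 0.05.

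Of the B cell and MHC class II genes, 0 passed either limma contrast at an adjusted p under 0.05. At an unadjusted p under 0.05, 0 of both lists passed against day 30, and 2 B cell genes and 1 MHC class II gene passed against days 4, 7 and 9. The median of the B cell list less that of all genes was -2.15, -1.72, -1.95, -2.27 and -2.42 in order of day, and that of the MHC class II list was -1.98, -1.65, -1.97, -2.23 and -2.34. Of the erythroid genes 12 were lower in effect at day 25 than at day 30, and the list medians less that of all genes were 0.57 and 1.06. Of the platelet genes 4 were, with medians of 0.00 and 0.72. These counts are on the median scale. Without the mice scanned on another day than their controls, 0 erythroid and 0 platelet genes passed the limma contrast with day 30, and 9 and 6 had an unadjusted p under 0.05.

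**Figure D5:**
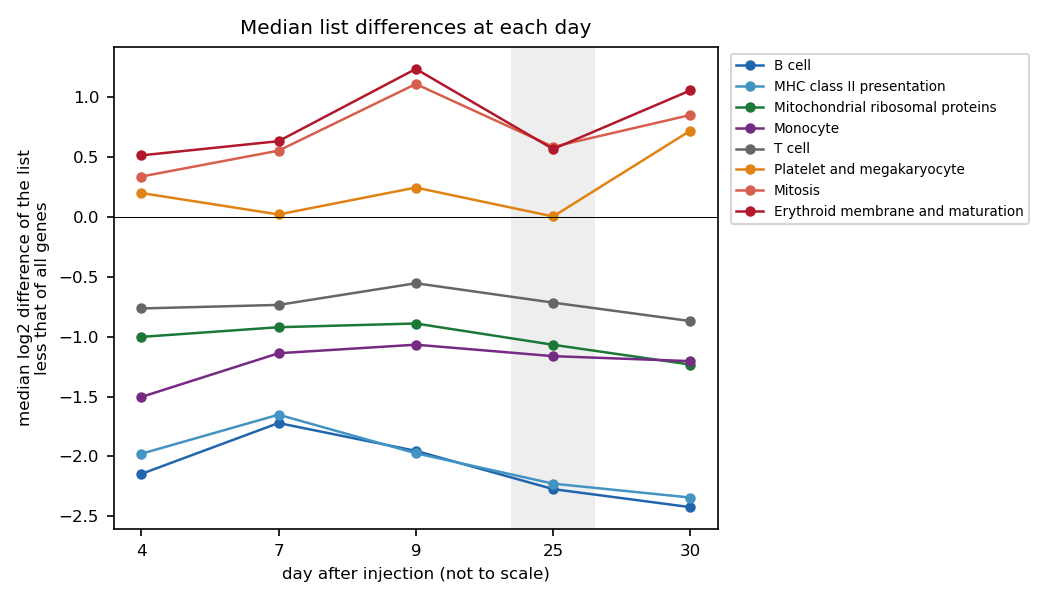
Median log2 difference of 8 gene lists less that of all genes (y axis) at each day (x axis, days not to scale); each point compares the 90Sr mice of that day with that day's own controls, and day 25 is shaded. B cell and MHC class II medians stay between -2.42 and -1.65, and the platelet median is 0.00 at day 25 and 0.72 at day 30.

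Cdkn1a had a larger effect at day 25 than at day 30, by 1.08 (limma adjusted p = 0.0395; 0.28 and 0.837 without the mice scanned on another day), with effects of 1.87, 1.65, 1.99, 1.23 and 0.15 in order of day. Mt2 differed by 2.10 at day 25 and by 1.97, 2.24, 2.76 and 2.01 at days 4, 7, 9 and 30, and neither contrast passed (adjusted p = 0.900 and 0.737, limma). Of the 10 genes named for the largest difference between days 25 and 30, 8 had groups that overlapped at day 25. Wsb2, an adaptor of ubiquitin ligases, differed by 6.42 between the effects. At day 30 its 90Sr mice 1 and 2, on the slide shared with controls, were at 12.51 and 11.35, within the 11.09 to 12.62 of control mice, and mice 3 to 6, scanned on another day, were at 1.33 to 5.39. Invs, Zfp316, Prss50 and Gzmk were higher in effect at day 25 by 3.57 to 4.16, and Slc4a7, Tagln, Srebf2, Spock1 and Sycp2 were lower, with differences of -4.23 to -2.48. Without the mice scanned on another day, Wsb2, Prss50 and Gzmk differed by 0.72, 0.44 and 0.02 and did not pass. Slc4a7, Tagln, Srebf2, Spock1 and Sycp2 did not pass either. Zfp316 differed by 3.03 there, but its value in 90Sr mouse 1 of day 30 was missing, so this rests on 90Sr mouse 2 alone. Its control mean was 5.59 at day 30 (4 mice with a value) and 1.09 to 2.39 on the other days. Invs also had no value in 90Sr mouse 1 of day 30. Of these 10 genes, Zfp316 and Prss50 were called at day 25, each higher, and a brighter probe of Zfp316 differed by 0.16.

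Against the earlier days, the genes of largest difference were among the increases named above. Trcg1 had effects of -0.12, 0.38 and 0.10 at days 4, 7 and 9 and of 1.98 at day 25, a difference of 1.85 (SE 0.32, limma adjusted p = 0.00572). Its control level at day 25 (mean 3.94) was below that of the control mice of days 4, 7 and 9 (6.37, 4.68 and 6.09), while the 90Sr mice of day 25 were at 5.91. Slc10a1, Srcap, Itih1 and Xlr5a were higher in effect by 1.76 to 2.48, and their control means at day 25 were also below those of each of the earlier days. For Slc10a1 the control mean was 2.02 at day 25 and 3.33, 3.39 and 4.14 at days 4, 7 and 9, while the 90Sr mice of day 25 were at 4.05. Ramp1, a receptor accessory protein, and Pnp2, a purine enzyme, were lower in effect, with differences of -1.27 and -1.01. Ramp1 fell 2.32-fold at day 25 on the tested probe, and its other probe differed by 0.42.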

How the data were processed

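Per the file headers, the arrays were single-channel Agilent arrays read with Feature Extraction 11.5.1.1 (the submitters' processing notes name 10.7), which corrected each spot for background. The authors deposited linear intensities without scaling between arrays, for 44397 spots an array, 43020 of them not controls. The authors also deposited log2 values of the same arrays scaled to a reference array, used here as an alternative. Probe positions are on mm9 per the file headers.

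Each log2 intensity was taken less the array median of non-control spots, and repeated spots were averaged. A probe was dropped when 25% or more of the 56 arrays had it flagged as non-uniform or at background (18802 genes remained), and then when fewer than 20% of arrays departed 1.5-fold from its median (14584 remained). A gene was its tested probe of highest mean. For 729 genes a brighter probe had been dropped for low variation; 177 of these were called, 115 of them with the brighter probe in the same direction. Groups were compared with limma 3.58.1 (lmFit, eBayes) in R 4.3.3 without covariates, and called at an unadjusted p of 0.001 and 2-fold, with Benjamini-Hochberg adjusted p over all genes tested. Other days entered as contrasts in 1 fit of 10 groups. For array properties, two-sided exact permutation covered all 924 splits. The number of arrays limits the precision.

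Where a probe was never well above background in a group, its fold is a bound against the dimmest such signal of each array, or the probe's own signal if higher. Such a bound is on the median scale and is firm only where the other group was itself well above background. Symbols are those of the array files; 10489 tested genes matched the reference by accession, 737 under another symbol. The 47 gene lists, the groups and the tests were chosen with earlier results of these data known. The genes named are the 12 largest changes in each direction without overlap, called under 4 scalings, well above background in the higher group and with established symbols; up to 3 called members per list and direction; 17 markers and 7 genes that the study measured by PCR; and the 5 largest differences from other days in each direction. Pax5, Ralgps2, Cd22, H2-Eb1, H2-Oa and Racgap1 were added after their values were seen, and not every gene of the rule is described; some are not reported here. Alternatives were 5 scalings, normexp (offset 50), other filters, thresholds and probe rules, the deposited log2 values, slide or replicate number as a block, array weights, 1 fit of 10 groups, each array left out and, for other days, arrays scanned with their controls. The steps were tested on simulated data.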

Additional observations from a re-analysis of the deposited data

Results flagged for a closer look

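In 8 of 264 groups of 6 values checked, 1 mouse lay apart from the other 5, and chance alone gives about 1 in 20 such groups. Among control mice these were Mbd5 in mouse 1 (8.86), Ppbp, a platelet chemokine, in mouse 2 (11.99), Pltp in mouse 5 (4.25), Sf3b1 in mouse 6 (0.45), Pax5 in mouse 6 (1.0), Zfp316 in mouse 1 (0.47) and Ramp1 in mouse 1 (4.77). Among 90Sr mice it was Cdkn1a in mouse 1 (1.38), where the other 5 ranged from 0.35 to 0.73.

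The effect at day 25 differed from that at day 30 for Slc4a7 by -4.23, Tagln by -2.78, Srebf2 by -2.56, Spock1 by -2.5, Sycp2 by -2.48 and Pnp2 by -0.84. It was higher at day 25 for Wsb2 by 6.42, Invs by 4.16, Zfp316 by 4.1, Prss50 by 3.64, Gzmk by 3.57 and Cdkn1a by 1.08. Against the mean effect of days 4, 7 and 9 it was higher for Slc10a1 by 2.48, Srcap by 2.05, Trcg1 by 1.85, Itih1 by 1.84, Xlr5a by 1.76 and Rhox6 by 1.66, and it was lower for Pnp2 by -1.01 and Ramp1 by -1.27. These are log2 differences with a limma adjusted p under 0.05 over all genes tested, in the fit of all arrays. Without the 90Sr mice of days 7 and 30 scanned on another day than their controls, Zfp316 and Invs had a day 30 value in 90Sr mouse 2 only. Of the remaining genes set against day 30, none passed that contrast without the mice scanned on another day. Of the genes set against days 4, 7 and 9, all except Rhox6 passed without them. With slide as a random block, 0 genes passed the limma contrast with days 4, 7 and 9, and 734 had an unadjusted p under 0.05.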

How the results depend on the processing

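The numbers called higher and lower were 4256 and 1116 (20.77% lower) with the 75th percentile, 4286 and 1070 (19.98%) with spots well above background on all 12 arrays, 1828 and 1610 (46.8%) with quantiles and 9 and 7780 (7789 in all, 99.9%) with spike-in probes. The share lower was 69.2% with the reference array, 72.8% with the authors' values, 80.7% with array weights and 74.8% with only the 90Sr arrays of the slide without controls, an alternative chosen after the data were seen. Requiring spots well above background gave 655 higher (81.3% lower), no filter 1726 (69.1%), an adjusted p under 0.05 with 2-fold 1789 (70.5%) and with any fold 4598 of 10391 (55.8%). Slide as a fixed block gave 81 (32 higher, 49 lower, 60.5%), as a random block 601 higher (83.4%), and the shared slide alone 25 (11 higher, 14 lower, 56%). Normexp as planned gave 1 call of 8976 genes (1 higher, 0 lower, 0%); up to 23 spots an array had background above their signal, and without them it gave 3193 calls of 5474 genes (10 higher, 99.7% lower).

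Replicate numbers correlated from -0.13 to 0.30 within their own number, and no mouse correlated best with its own number, so they do not pair the mice; the replicate block gave 4419 calls, 719 of them higher (83.7% lower). Leaving out each array gave 3976 to 5552 calls, 671 (without 90Sr mouse 5) to 1301 higher, 3215 to 4251 lower and 76.6% to 83.4% lower. The contrast with day 30 gave 656 (without control mouse 1) to 1461 genes, with 700 without 90Sr mouse 1, and that with days 4, 7 and 9 gave 3 (without control mouse 3) to 117 (without control mouse 6), with 11, 20, 21, 106, 4, 12 and 23 without control mice 2, 4 and 5 and 90Sr mice 2, 3, 5 and 6. The contrast with day 30 gave 638 genes with the 75th percentile, 548 with quantiles, 33 with spike-ins, 2310 without the filter on variation, 225 with slide as a random block and 3066 with array weights. That with days 4, 7 and 9 gave 90 with quantiles, 119 with the reference array, 15 with spike-ins, 123 with the authors' values, 0 in limma with slide as a random block (734 at an unadjusted p under 0.05) and 512 with array weights.

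Signs turned for Slc10a1 (-0.59) and Zfp316 (-0.56) with spike-ins, Dennd5b (0.75) with normexp as planned, Csf1r with the 75th percentile (0.70), spots well above background (0.70), quantiles (0.28), the reference array (0.30), normexp (1.25), no filter on variation (0.22) and no filter (0.22), and Ramp1 with the 75th percentile (0.90), spots well above background (0.90) and quantiles (0.88). In these 5 genes except under normexp, the change came with another probe of the gene. List medians less that of all genes turned for T cell (0.12), NK (0.00954), neutrophil (0.15) and cytosolic ribosomal genes (0.57) with normexp as planned, NK (0.12) and p53 (0.00879) genes within the shared slide, and heme genes (-0.038) without a filter; the cause was not tested. Of the other single-gene values, 3605 were on the same side of the threshold, 466 lost it and 37 gained it. Scan day as a block could not be run for day 25, since all 12 arrays share 1 scan day. With only arrays scanned on the day of their controls, chosen after the data were seen, the contrasts gave 9 genes (day 30) and 21 (days 4, 7 and 9), and the depth of signal limits the dim genes, whose folds are bounds.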
